A study of Homo sapiens with 8 samples.

Results

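NEAT1, MALAT1 and the paraspeckle protein genes SFPQ, NONO, PSPC1, RBM14 and TARDBP were followed in RNAseq data from U251 cells treated with the PRMT5 inhibitor LLY-283. They comprise 7 of the 61906 genes listed, each found by its symbol, and all 7 passed the filter on low values that left 14478 genes. They were picked with their LLY-283 against vehicle differences already known, so those differences are given as a description and without a test.

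U251 is an established human glioblastoma cell line. The 8 libraries came from wild-type U251 cultures, 4 treated for 24 h with vehicle (DMSO) and 4 treated for 24 h with 100 nM LLY-283, which blocks PRMT5, the enzyme that forms symmetric dimethylarginine on proteins. Poly(A) RNA was captured, and expression is given as TPM, the share of a transcript in its library after division by transcript length, so that levels of different genes can be set side by side. Replicate numbers name biological replicates of this single line, and TPM values keep no read depth, so no counting interval can be attached to them. Levels are given as mean ± SD over the libraries of a group, n = 4 unless another n is stated, and vehicle comes before LLY-283.

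NEAT1 is the long noncoding RNA on which paraspeckles, small bodies in the nucleus, are built. Its gene gives a short transcript with a poly(A) tail and a long one, NEAT1_2, which forms the scaffold and ends without such a tail. SFPQ, NONO and PSPC1 are related RNA-binding proteins that coat NEAT1_2, RBM14 is needed for the bodies to form, and TARDBP (TDP-43) binds NEAT1 and affects the choice between its transcripts. MALAT1, the neighbour of NEAT1, is a long noncoding RNA of nuclear speckles, the bodies that store splicing factors.

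NEAT1 (ENSG00000245532) occupies chr11:65422774-65445540 on the forward strand of GRCh38, and MALAT1 (ENSG00000251562) occupies chr11:65497640-65508073 on the same strand. A gap of 52.1 kb separates the NEAT1 end from the MALAT1 start. GENCODE release 44 lists 9 NEAT1 transcripts of 512 to 22743 bases. The longest of them, NEAT1-202, is a single exon, and the short transcripts end at or before position 65426513. MALAT1 has 66 listed transcripts of 282 to 10434 bases. The sequences at these ends are shown because they bear on how poly(A) capture sees each RNA. NEAT1_2 and the MALAT1 RNA are cut by RNase P ahead of a tRNA-like RNA, and their new ends fold into a triple helix in place of a poly(A) tail. The first pair of lines gives the last 130 bases before each cut, chr11:65445411-65445540 for NEAT1_2 and chr11:65505987-65506116 for MALAT1. The next line gives the tRNA-like RNA of MALAT1, chr11:65506117-65506173, and the last line the final 60 bases of the 2 short NEAT1 transcripts that reach furthest, chr11:65426454-65426513. All are read 5′ to 3′ from the forward strand. Capitals mark the runs of at least 8 bases that the first pair have in common, and the AATAAA of a poly(A) signal in those short transcripts.
NEAT1_2 end: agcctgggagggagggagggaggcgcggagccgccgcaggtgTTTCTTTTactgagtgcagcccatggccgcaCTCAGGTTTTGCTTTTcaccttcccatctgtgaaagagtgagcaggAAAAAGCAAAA
MALAT1 end: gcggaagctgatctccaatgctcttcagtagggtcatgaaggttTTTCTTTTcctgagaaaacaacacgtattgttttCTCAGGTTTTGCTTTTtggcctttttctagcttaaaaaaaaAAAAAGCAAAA
tRNA-like RNA of MALAT1: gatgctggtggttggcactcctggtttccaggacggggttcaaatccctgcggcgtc
NEAT1 short transcript end: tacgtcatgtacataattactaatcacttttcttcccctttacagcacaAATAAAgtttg

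The ends of NEAT1_2 and MALAT1 share 3 runs in the same order. The U-rich TTTCTTTT and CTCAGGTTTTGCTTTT and the A-rich AAAAAGCAAAA hold the letters of the triple helix. They start at bases 43, 74 and 120 of the printed NEAT1_2 end and at bases 45, 79 and 120 of the MALAT1 end. Among the last 130 bases of 246339 annotated transcripts, searched on the transcribed strand only, TTTCTTTT was found in 1.83%, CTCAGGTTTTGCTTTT in 0.000812% and AAAAAGCAAAA in 0.0641%. All 3 together were found in 1 transcript. The runs were taken from the printed ends themselves, and a match is a description of the sequence. The base after each printed end is the first base of an annotated small RNA, ENSG00000275948 after NEAT1 and ENSG00000274072 after MALAT1. Both small RNAs were listed at 0 in all 8 libraries.

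Runs of A inside an RNA can also be caught by oligo-dT. The first 3716 bases of the long NEAT1 transcript, up to the furthest end of the short ones, held 0 runs of at least 10 A. The remaining 19027 bases of the long transcript held 5 such runs, with a longest run of 22, and MALAT1-202 held 1 run of 13. That MALAT1 run is the one in the printed MALAT1 end, where it takes in the first A bases of AAAAAGCAAAA. It is therefore part of the A-rich letters of the triple helix and not a separate site further inside the RNA. The table gives a single TPM value per gene, so the short and long NEAT1 transcripts could not be measured apart.

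NEAT1 was expressed at 756.13, 742.84, 787.97 and 812.61 TPM in vehicle replicates 1 to 4. In LLY-283 replicates 1 to 4 it was expressed at 194.97, 181.77, 180.11 and 105.92 TPM. The groups were far apart, and LLY-283 replicate 4 lay below the other 3 treated libraries. The log2 difference, LLY-283 minus vehicle, was -2.26 (SE 0.165, n = 4 each) on the log2(TPM + 0.1) scale, on which the change of genes of low expression is understated. Without LLY-283 replicate 4 the treated level was 185.6 ± 8.14 TPM (SD, n = 3), which is 24.0% of the vehicle mean. In bulk samples, fewer cells that express a gene and less RNA per cell cannot be told apart. With poly(A) capture and a single value per gene, a change in total NEAT1 cannot be told apart from a change in the balance of its tailed and tail-less transcripts.

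MALAT1 was expressed at 225.47, 221.99, 236.32 and 212.96 TPM in vehicle replicates 1 to 4. It was expressed at 100.09, 111.83, 101.40 and 54.07 TPM in LLY-283 replicates 1 to 4. The groups did not overlap, and the lowest value again belonged to LLY-283 replicate 4. The level went from 224.2 ± 9.66 to 91.8 ± 25.7 TPM, a log2 difference of -1.34 (SE 0.193). Without replicate 4 the treated level was 104.4 ± 6.43 TPM (SD, n = 3), or 46.6% of the vehicle mean. How much of the tail-less MALAT1 RNA was captured in each library was not measured. TALAM1, the antisense transcript of the MALAT1 locus, lay between 0.00 and 0.07 TPM in all libraries, and whether the counting used strand is not stated.

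**Figure D1:**
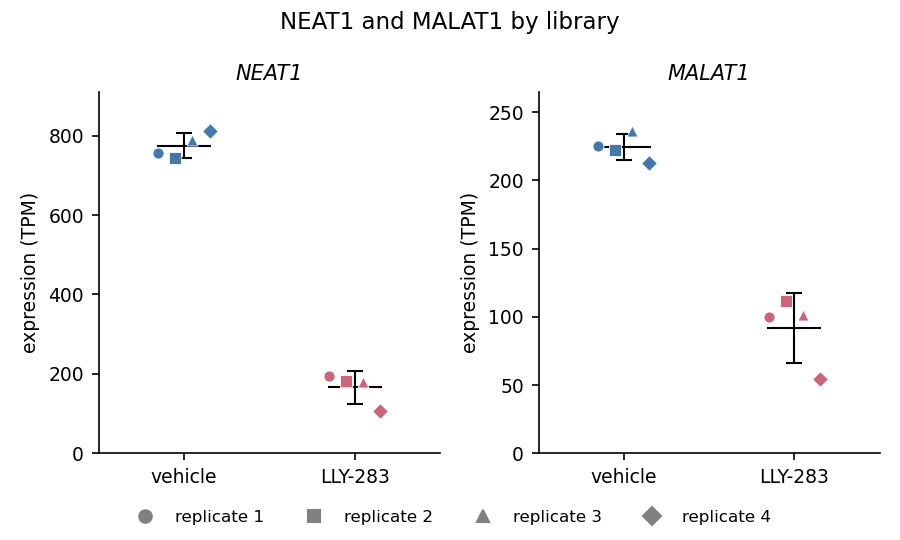
Expression (TPM) of NEAT1 and MALAT1 in each library, with the group mean and SD as black bars (n = 4 each). The treated libraries sit between 105.92 and 194.97 TPM for NEAT1 and between 54.07 and 111.83 TPM for MALAT1, below every vehicle library, and LLY-283 replicate 4 is the lowest for both.

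LLY-283 replicate 4 stood apart in more than these genes. Mitochondrial genes took 7.19% of its TPM, and the next lowest of the 8 libraries was vehicle replicate 4 with 10.2%. Among 9090 genes that averaged at least 10 TPM, 174 lay more than 0.5 on the log2 scale below the mean of the other 3 treated libraries, against 13 to 31 genes for each of those. NEAT1 lay 0.81 below on that scale in replicate 4 and MALAT1 0.95 below, at percentiles 0.385 and 0.187 of these genes. The 12 listed RNAs without a poly(A) tail summed to 133.9 to 322.5 TPM in the treated libraries and to 213.1 to 887.1 TPM in the vehicle libraries, so their ranges overlapped. Their mean sum went from 410.3 ± 320.5 to 196.6 ± 86.1 TPM, and the highest value belonged to vehicle replicate 1. Of the 7 that were tested, 6 had a negative log2 fold change, and the median of the 7 was -0.96. SNORD3A, a small nucleolar RNA, fell from 5.20 ± 2.55 to 2.43 ± 0.517 TPM (log2 fold change -0.96, SE 0.307, adjusted p = 0.0449, limma), a call lost under 12 of 17 alternative settings (adjusted p from 0.0113 to 0.104). Without vehicle replicate 1, 6 of these RNAs were tested, all with a negative value, and their median was -0.58. The part of these differences in the levels of NEAT1 and MALAT1 was not tested, beyond the values without replicate 4 above.

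NEAT1 was lower relative to MALAT1 in each treated library than in any vehicle library. The ratio of NEAT1 to MALAT1 was 3.35, 3.35, 3.33 and 3.82 in vehicle replicates 1 to 4. It was 1.95, 1.63, 1.78 and 1.96 in LLY-283 replicates 1 to 4, so that the ratios of the groups did not overlap. In replicate 4, where both RNAs were lowest, the ratio was close to the highest of the other treated libraries. A ratio shows unequal change only.

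NEAT1 had the highest level of 1368 long noncoding genes tested in vehicle-treated cells and ranked 4 in LLY-283-treated cells, while MALAT1 went from rank 5 to rank 16. By log2 difference, counted from the lowest, NEAT1 ranked 3 and MALAT1 ranked 22 of the 1368 genes, whose median was -0.28. Among the 187 long noncoding genes averaging at least 10 TPM, NEAT1 had the lowest log2 difference and MALAT1 the second lowest. The median log2 difference of these 187 genes was -0.22. NEAT1 made up 6.03% ± 0.204 (SD) of all long noncoding TPM in vehicle-treated cells and 1.55% ± 0.331 (SD) in LLY-283-treated cells. Of a list of 18 other long noncoding genes, 16 were tested, of which 6 fell and 3 rose at an adjusted p under 0.05 (limma, adjusted over all genes tested), with a median log2 fold change of -0.15. Of the 3 that rose, SNHG1 was close to the threshold (log2 fold change 0.19, adjusted p = 0.0495, limma) and lost its call under 15 of 18 alternative settings (adjusted p from 0.00060 to 0.123 over the 18). Over all 14478 genes, 17.6% fell and 8.61% rose by that rule, and the median over all genes was -0.05 on the log2 scale. Of the 1368 long noncoding genes tested, 385 fell and 44 rose by the same rule. MEG3, an imprinted long noncoding RNA, fell from 159.7 ± 6.26 to 103.1 ± 24.6 TPM (log2 fold change -0.67, SE 0.162, adjusted p = 0.0148, limma), and its lowest value of 66.43 TPM was also in LLY-283 replicate 4. CYTOR had a log2 fold change of -0.41 (adjusted p = 0.000281, limma) and OIP5-AS1 one of -0.39 (adjusted p = 0.00193, limma). HOTAIRM1, from the HOXA cluster, rose from 43.3 ± 1.21 to 57.1 ± 2.05 TPM (log2 fold change 0.40, SE 0.037, adjusted p = 0.000139, limma). TUG1 was at 55.1 ± 2.32 and 54.0 ± 7.40 TPM and GAS5 at 291.5 ± 10.95 and 270.1 ± 21.7 TPM, and neither passed the test. GENCODE release 44 classes TUG1 as protein coding, so TUG1 is in the list but not among the 1368 genes.

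**Figure D2:**
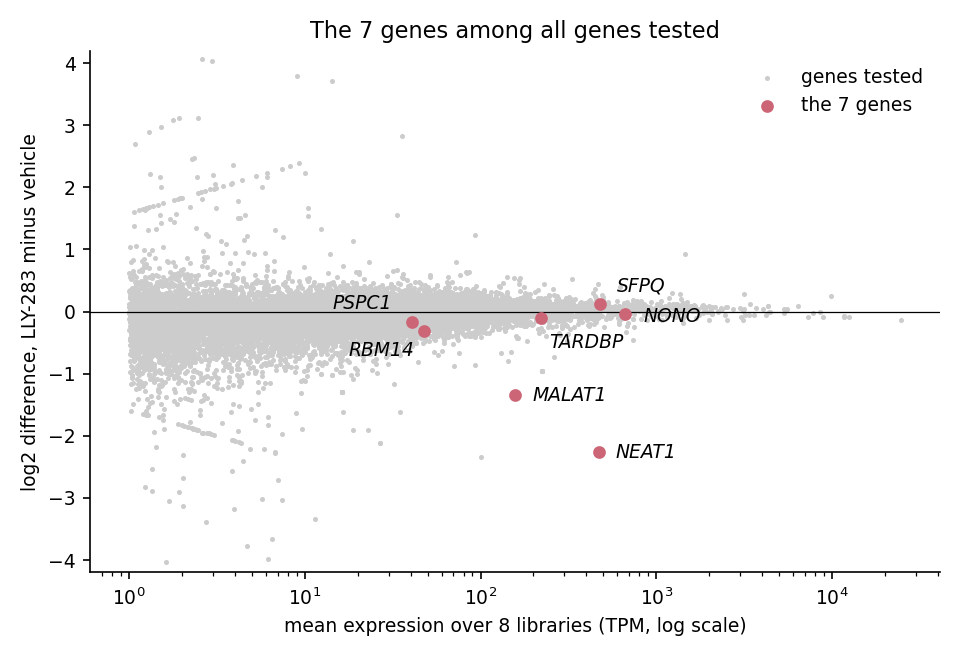
Log2 difference (LLY-283 minus vehicle) against the mean expression over 8 libraries (TPM, log scale) for 14478 genes in grey and the 7 genes in red. NEAT1 at -2.26 and MALAT1 at -1.34 lie below the main band of genes, whereas the 5 protein genes lie between -0.31 and 0.13, and 6 genes fall outside the plotted range.

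Genes whose profile over the 8 libraries was most like that of NEAT1 were ranked by Pearson's r of log2(TPM + 0.1) among 9089 genes averaging at least 10 TPM. The libraries share the treatment split and the low values of replicate 4, so r is a description. PMPCB, a subunit of the mitochondrial processing peptidase, had r = 0.999, and ARRDC1-AS1, METTL23, ZRANB2 and ZNF213-AS1 followed. MALAT1 ranked 100 with r = 0.976. With the group means subtracted, which leaves the differences between replicates, MALAT1 had r = 0.949 with NEAT1 and ranked 151, behind MAT2A, RBM5, MT-CYB and AHSA2P among others. SFPQ had r = 0.779 and RBM14 r = -0.644 by this second measure.

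SFPQ (ENSG00000116560, chr1:35176378-35193446, reverse strand), which also acts in splicing and transcription, was expressed at 452.68, 462.62, 458.06 and 452.22 TPM in vehicle replicates 1 to 4. In LLY-283 replicates 1 to 4 it was expressed at 503.30, 496.35, 528.73 and 465.91 TPM. All treated values were above all vehicle values, with the smallest margin in replicate 4. The level went from 456.4 ± 4.92 to 498.6 ± 25.8 TPM, a log2 difference of 0.13 (SE 0.037).

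NONO (ENSG00000147140, chrX:71254814-71301522, forward strand), the partner of SFPQ in heterodimers, was expressed at 667.19, 673.03, 675.82 and 666.38 TPM in vehicle replicates 1 to 4. In LLY-283 replicates 1 to 4 it was expressed at 647.29, 651.14, 657.46 and 653.57 TPM. The treated values lay below all vehicle values by a small margin, and the replicates of each group were close together. The level went from 670.6 ± 4.57 to 652.4 ± 4.27 TPM, a log2 difference of -0.04 (SE 0.021) that turned to 0.02 with median-of-ratios scaling. The NONO pseudogene NONOP2 lay between 0.18 and 0.73 TPM.

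PSPC1 (ENSG00000121390, chr13:19674752-19783019, reverse strand), the least abundant of the 3 related proteins' genes, was expressed at 40.81, 43.22, 43.47 and 43.69 TPM in vehicle replicates 1 to 4. In LLY-283 replicates 1 to 4 it was expressed at 39.18, 39.41, 36.75 and 37.77 TPM. The groups did not overlap, and vehicle replicate 1 was the vehicle library nearest to the treated ones. The level went from 42.8 ± 1.34 to 38.3 ± 1.25 TPM, a log2 difference of -0.16 (SE 0.038).

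The summed TPM of SFPQ, NONO and PSPC1 was 1169.8 ± 9.64 in vehicle-treated and 1189.2 ± 26.9 in LLY-283-treated cells, and the ranges overlapped. Within this sum the share of SFPQ went from 39.0% ± 0.159 to 41.9% ± 1.24. The share of NONO went from 57.3% ± 0.169 to 54.9% ± 1.16, and neither share overlapped between the groups. For each TPM of NEAT1 there were 1.51 ± 0.066 TPM of the 3 genes in vehicle-treated cells and 7.59 ± 2.24 TPM in LLY-283-treated cells. The treated values were 6.10, 6.53, 6.79 and 10.9 in replicates 1 to 4, with replicate 4 apart.

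RBM14 (ENSG00000239306, chr11:66616626-66629934, forward strand), a coactivator with a prion-like domain, was expressed at 51.06, 51.51, 52.07 and 55.90 TPM in vehicle replicates 1 to 4. In LLY-283 replicates 1 to 4 it was expressed at 40.57, 42.65, 40.68 and 45.46 TPM. The groups were separated by more than 5 TPM, and replicate 4 was the highest library in each group. The level went from 52.6 ± 2.22 to 42.3 ± 2.29 TPM, a log2 difference of -0.31 (SE 0.047), the lowest of the 5 protein genes. RBM14 shares exons with the readthrough gene RBM14-RBM4, so reads may be split between them. RBM14-RBM4 rose from 3.21 ± 0.311 to 4.66 ± 0.554 TPM (log2 fold change 0.52, SE 0.112, adjusted p = 0.00867, limma). Its share of the TPM of both genes went from 5.76% ± 0.700 to 9.93% ± 1.29. RBM4, the downstream gene, had a log2 fold change of -0.04 and did not pass the test (adjusted p = 0.266, limma).

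TARDBP (ENSG00000120948, chr1:11012344-11030528, forward strand) was expressed at 222.76, 227.22, 233.02 and 236.56 TPM in vehicle replicates 1 to 4. In LLY-283 replicates 1 to 4 it was expressed at 214.91, 215.15, 203.23 and 218.48 TPM. All treated values were below all vehicle values. The level went from 229.9 ± 6.12 to 212.9 ± 6.68 TPM, a log2 difference of -0.11 (SE 0.032). MASP2, on the opposite strand at the same place, reached at most 0.48 TPM.

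**Figure D3:**
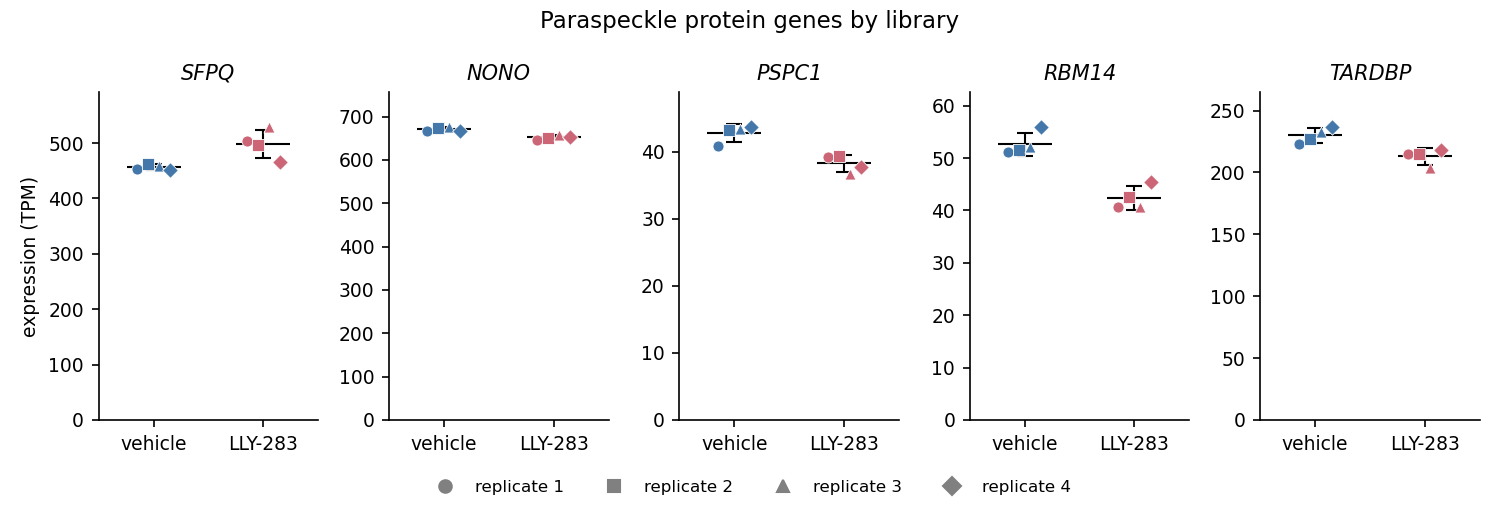
Expression (TPM) of SFPQ, NONO, PSPC1, RBM14 and TARDBP in each library, with the group mean and SD as black bars (n = 4 each) and axes that start at 0. SFPQ is higher and the other 4 genes are lower in the LLY-283 libraries, and the widest relative gap is that of RBM14, from 52.6 to 42.3 TPM.

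In vehicle-treated cells the order of the levels was NEAT1, NONO, SFPQ, TARDBP, MALAT1, RBM14 and PSPC1. TARDBP and MALAT1 had overlapping ranges, with TARDBP higher in 2 of 4 libraries, and the other neighbours in that order did not overlap. In LLY-283-treated cells the order was NONO, SFPQ, TARDBP, NEAT1, MALAT1, RBM14 and PSPC1. The ranges of NEAT1 and MALAT1 overlapped there, although NEAT1 was higher in each of the 4 libraries. The coefficient of variation of NEAT1 was 4.06% in vehicle and 24.4% in LLY-283 libraries, and that of MALAT1 4.31% and 28.01%. Without LLY-283 replicate 4 the treated values were 4.39% for NEAT1 and 6.16% for MALAT1, so the wider spread rested on that library. NONO varied by 0.681% and 0.654%.

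The groups did not overlap for any of the 7 genes, where 29.2% of the genes tested had groups without overlap (9.63% higher and 19.6% lower in LLY-283). All but NONO had an adjusted p under 0.05 (limma), the rule by which 26.2% of the genes tested were called (8.61% higher and 17.6% lower). NEAT1 and MALAT1 also changed more than 1.5-fold, as did 3.87% of the genes tested (0.394% higher and 3.48% lower). Since the genes were chosen from this contrast, nothing is read from these counts.

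Other genes whose products are known from paraspeckles were followed as a list of 34, of which 31 were tested. Of these, 5 rose and 7 fell at an adjusted p under 0.05 (limma), 38.7% of the 31 against 26.2% of all genes tested, and their median was -0.02 on the log2 scale. With each library left out in turn, 8 to 12 genes of the list were called, and HNRNPH3 (adjusted p = 0.0495, limma) lost its call under 14 of 18 alternative settings (adjusted p from 0.0455 to 0.634 over the 18). TAF15, an RNA-binding protein with a prion-like domain, fell from 325.1 ± 8.19 to 196.5 ± 3.35 TPM (log2 fold change -0.73, SE 0.027, adjusted p = 2.58e-06, limma), and it was the only gene of the list past 1.5-fold. EWSR1, a relative of TAF15, fell from 355.2 ± 5.47 to 276.5 ± 9.31 TPM (log2 fold change -0.36, SE 0.030, adjusted p = 7.51e-05, limma). The cold-inducible RNA-binding proteins went apart, with RBM3 at a log2 fold change of 0.30 (adjusted p = 0.000529, limma) and CIRBP at -0.25 (adjusted p = 0.000407, limma).

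The processing of the short NEAT1 transcript is known to need the cleavage factor made of CPSF6 and NUDT21, and HNRNPK is known to act against it. CPSF6 fell from 85.98 ± 3.63 to 75.5 ± 3.84 TPM (log2 fold change -0.19, SE 0.045, adjusted p = 0.0134, limma), a call lost with median-of-ratios scaling (-0.13, adjusted p = 0.0554). NUDT21 was at 84.7 ± 4.22 and 88.6 ± 5.83 TPM and HNRNPK at 811.7 ± 10.5 and 838.4 ± 13.1 TPM, and neither passed the test. SMARCA4, a chromatin remodeller found in paraspeckles, was at 102.3 ± 3.84 and 103.4 ± 4.34 TPM and did not pass it either. BCL11A, CELF6 and DLX3 were too low to be tested.

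Genes that act on the tail-less ends shown above were followed as a list of 13, of which 12 were tested and 3 rose and 3 fell (6 of 12, where 26.2% of all genes tested were called), with a median log2 fold change of 0.03. METTL16, a methyltransferase that binds the MALAT1 triple helix, rose from 25.7 ± 1.34 to 40.8 ± 1.49 TPM (log2 fold change 0.67, SE 0.046, adjusted p = 4.25e-05, limma). Among the RNase P protein subunits, RPP14 had a log2 fold change of 0.36 and RPP40 one of 0.34, and both passed the test. RPP25L at -0.49, POP5 at -0.31 and POP4 at -0.18 fell, the last of them losing its call with median-of-ratios scaling. ELAC2, the RNase Z that trims the other end of the tRNA-like RNA, was at 113.1 ± 7.48 and 119.3 ± 5.34 TPM and did not pass the test.

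Of 12 genes for nuclear speckle proteins, the neighbourhood of MALAT1 in the nucleus, 8 rose and 0 fell at an adjusted p under 0.05 (limma), and their median was 0.18 on the log2 scale. Over all genes tested, 8.61% rose and 17.6% fell by that rule. PNISR was at a log2 fold change of -0.28 with an unadjusted p of 0.0185 (adjusted p = 0.0633, limma), the 1 lower gene with an unadjusted p under 0.05. SRRM1, a splicing coactivator, rose from 111.5 ± 3.11 to 147.1 ± 11.7 TPM (log2 fold change 0.40, SE 0.054, adjusted p = 0.000897, limma). SRSF3, an SR protein, rose from 444.7 ± 11.1 to 536.0 ± 15.2 TPM (log2 fold change 0.27, SE 0.0295, adjusted p = 0.00034, limma). SON and SRRM2, which form the core of the speckle, were at log2 fold changes of 0.20 (adjusted p = 0.132, limma) and -0.17 (adjusted p = 0.161, limma). Without LLY-283 replicate 4, 10 of the 12 genes rose, now with SON and PNN among them, and PNISR fell. Calls also went up over all genes in that setting. There 1502 rose and 2689 fell of 14516 genes, against 1247 and 2541 of 14478 in the main fit.

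**Figure D4:**
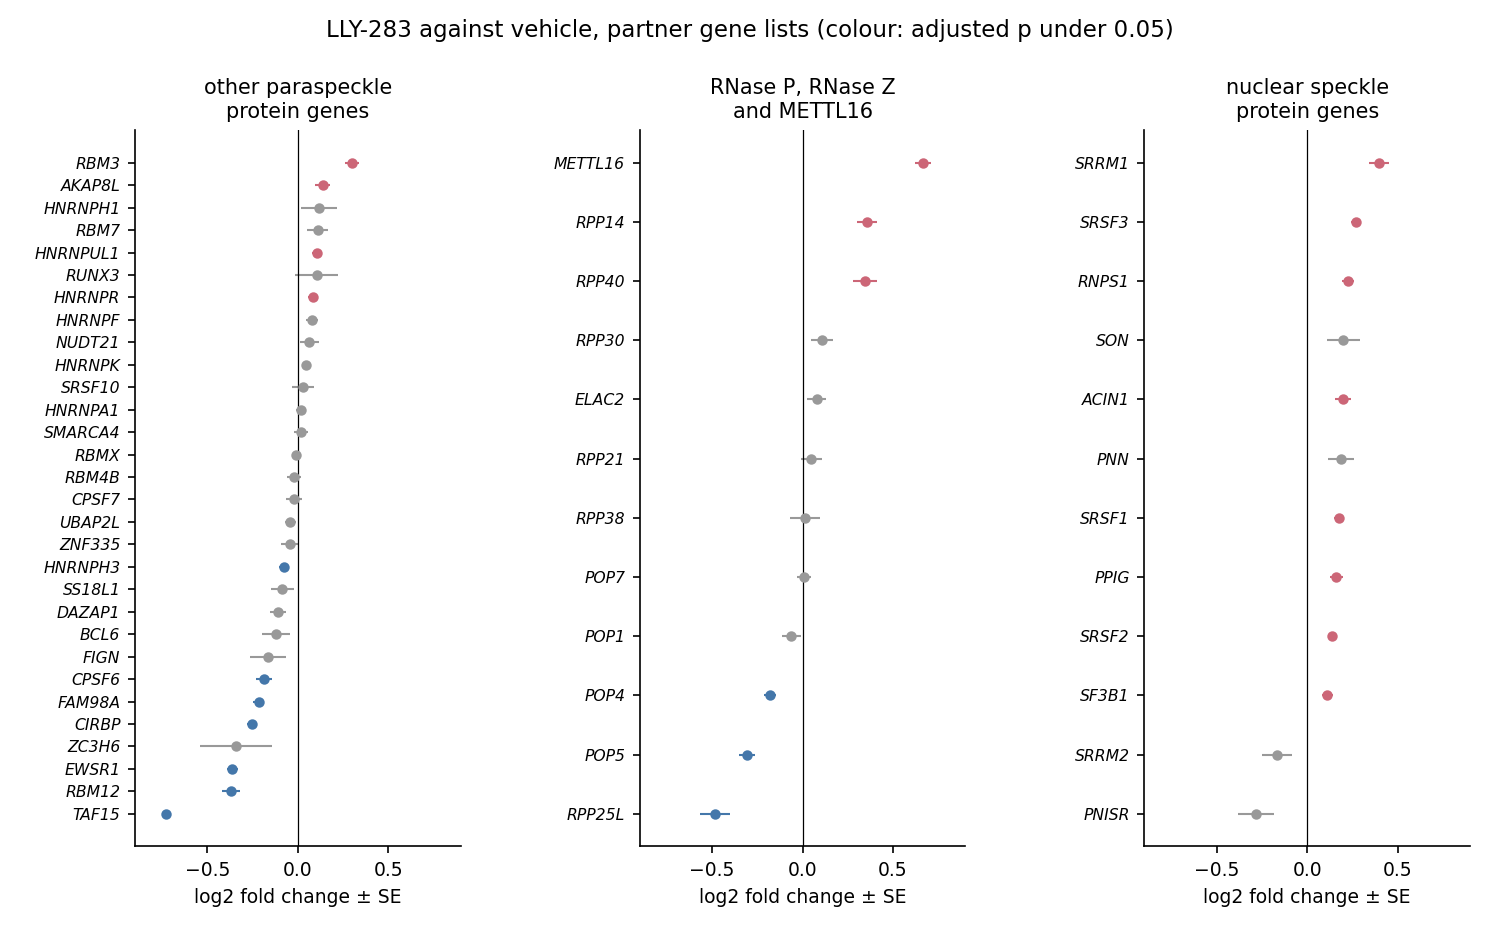
Log2 fold change (LLY-283 against vehicle) with its SE for tested genes of 3 lists, with genes at an adjusted p under 0.05 (limma) in red where higher and in blue where lower. The paraspeckle genes shown spread on both sides of 0, from TAF15 at -0.73 to RBM3 at 0.30, METTL16 stands at 0.67, and 8 of the 12 speckle genes are red.

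Among transcription regulators known to act on NEAT1, BRCA1 fell from 33.1 ± 2.04 to 26.1 ± 0.651 TPM (log2 fold change -0.34, SE 0.048, adjusted p = 0.00116, limma). HSF1, the heat shock regulator, rose by 0.12 on the log2 scale (adjusted p = 0.0363, limma), a call lost under 8 of 18 alternative settings, and HIF1A and EPAS1 did not pass the test.

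The genes around NEAT1 and MALAT1 on chromosome 11 were also compared. Of 20 other genes tested within 250 kb, 1 rose and 5 fell at an adjusted p under 0.05 (limma), 30.0% of them, against 26.2% of all genes tested, with a median log2 fold change of -0.07. Within 100 kb, 2 of 10 genes fell (20.0%). FRMD8, which ends 9.25 kb before NEAT1, was at 15.5 ± 1.04 and 14.5 ± 1.55 TPM and did not pass the test. SLC25A45, which lies 39.1 kb before NEAT1, fell from 2.95 ± 0.502 to 1.75 ± 0.142 TPM (log2 fold change -0.71, SE 0.146, adjusted p = 0.00712, limma). RELA-DT, the divergent transcript of RELA, had the lowest log2 fold change of the 20 genes at -1.07 (SE 0.245, adjusted p = 0.0119, limma). Its level was low, at 2.5 ± 0.48 and 1.1 ± 0.35 TPM. It overlaps the start of RELA on the opposite strand, and whether the counting used strand is not stated. RELA itself, an NF-kappaB subunit, rose by 0.14. Short RNA models inside the NEAT1 gene were erratic: ENSG00000278144 lay between 0 and 52.39 TPM with 2 vehicle and 2 LLY-283 libraries at 0.

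**Figure D5:**
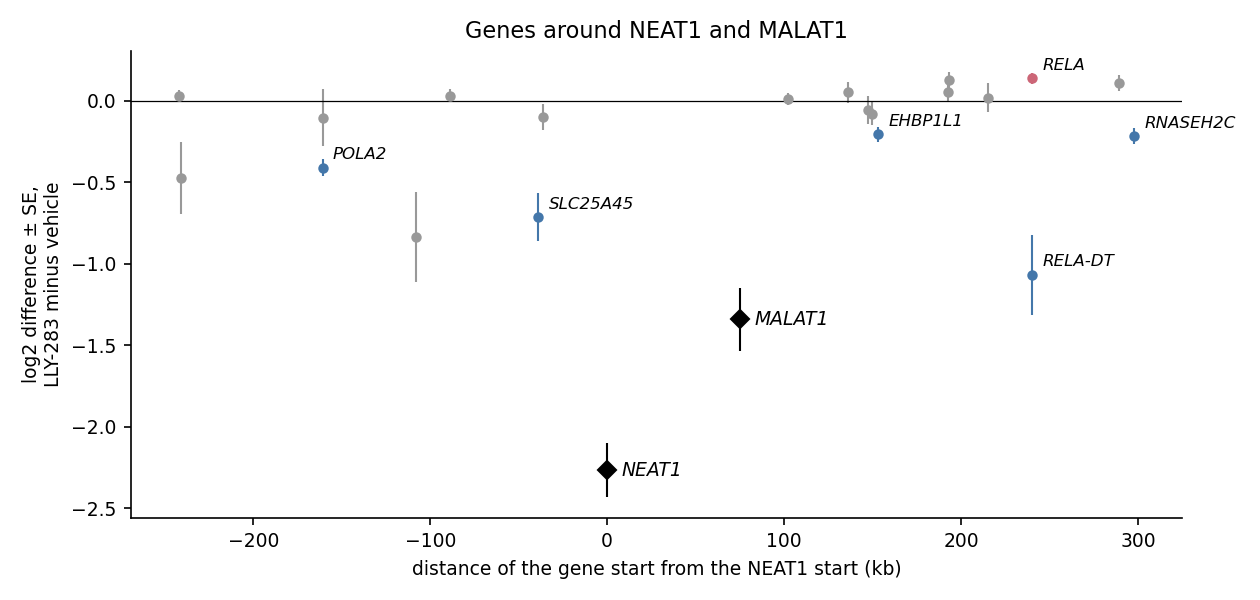
Log2 difference (LLY-283 minus vehicle) with its SE against the distance of each gene start from the NEAT1 start (kb), with NEAT1 and MALAT1 as black diamonds and other genes in red or blue where the adjusted p (limma) was under 0.05. NEAT1 and MALAT1 stand at -2.26 and -1.34, and the 20 other genes lie between -1.07 and 0.14.

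The identity of the cells was checked on markers. GFAP was at 809.5 ± 32.6 and 679.9 ± 16.1 TPM, VIM at 4301 ± 34.8 and 4121 ± 180.0 TPM and NES at 482.8 ± 4.67 and 428.8 ± 5.64 TPM in vehicle- and LLY-283-treated cells. S100B, also a marker of the line, was low at 4.3 ± 0.65 and 3.2 ± 0.60 TPM. Of 6 markers of the line, GFAP, NES and SOX2 fell and CD44 rose at an adjusted p under 0.05 (limma), the last a call lost under 4 of 18 alternative settings. By that rule 17.6% of all genes tested fell and 8.61% rose. SOX2 was at 103.3 ± 3.16 and 85.6 ± 1.10 TPM and CD44 at 1576 ± 45.2 and 1700 ± 22.7 TPM. VIM and S100B did not pass the test. The 6 markers of other cell types (PTPRC, PECAM1, CDH5, EPCAM, RBFOX3 and MBP) had group means of at most 0.475 TPM, with PTPRC and PECAM1 at or near 0 in both groups.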

How the data were processed

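The authors ran the RNA-seek pipeline (1.7.1) on the reads, with Cutadapt 1.18 for adapters, STAR for alignment to GRCh38 (2.7.6a in the methods, 2.7.0f in the submitters' processing notes) and RSEM for expression (1.3.3 and 1.3.1, respectively), using the genes of GENCODE release 41. They deposited TPM values, with 1 value for each gene in each library. TPM removes depth and length but not composition, so abundant genes can shift all others.

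On log2(TPM + 0.1), 4 LLY-283 libraries were compared with 4 vehicle libraries for 14478 genes that averaged 1 TPM or more, using limma 3.58.1 (lmFit, eBayes with a trend) in R 4.3.3 and Benjamini-Hochberg adjustment over all of these genes. A gene was called at an adjusted p under 0.05, and a second rule added a change above 1.5-fold. The fit was tested on simulated data first. Gene positions and sequences came from GENCODE release 44 on GRCh38, in which 61803 of the 61906 listed genes were found by identifier. Whether the counting used strand is not given in the sources used here. Tables were handled with pandas 2.3.3 in Python 3.11.15.

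The 7 genes and all lists were chosen with earlier results of these data known. Named beside the 7 are genes of short lists (14 or fewer), of longer lists the 5 called genes with the largest change in each direction and 14 fixed by name, neighbours within 100 kb or called, the 5 genes most like NEAT1, and pseudogenes or genes that overlap the 7. No list was tested as a set. Some genes that these rules select are not reported here. The alternatives were pseudocounts of 0.5 and 1, a filter at 5 TPM or none, quantile and median-of-ratios scaling, removal of mitochondrial genes or of NEAT1 and MALAT1 from the total, eBayes without a trend, a replicate block and each library left out.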

Additional observations from a re-analysis of the deposited data

Results flagged for a closer look

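In 40 groups of 4 libraries examined, 8 had a library whose gap to its nearest neighbour was large for the range of its group, where chance gives about 1 in 20. Of the 14 groups of the 7 genes themselves, 2 were among them, NEAT1 with 105.92 TPM in LLY-283 replicate 4 and PSPC1 with 40.81 TPM in vehicle replicate 1. LLY-283 replicate 4 also stood apart in the summed TPM of SFPQ, NONO and PSPC1 per TPM of NEAT1 (10.9), in the share of NEAT1 in long noncoding TPM (1.06%) and in the share of mitochondrial genes in all TPM (7.19%). The first and second of these rest on the same NEAT1 value. MALAT1 in LLY-283 replicate 4 was not past the limit.

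In the vehicle group, replicate 4 had the highest ratio of NEAT1 to MALAT1 (3.82), replicate 2 the highest ratio of SFPQ to NONO (0.687), and replicate 1 the highest summed TPM of RNAs without a poly(A) tail (887.1). The ratio of SFPQ to NONO in that replicate was still below all treated values, which began at 0.713.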

How the results depend on the processing

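NEAT1 kept a log2 difference between -2.35 and -2.06 and MALAT1 one between -1.45 and -1.10 over 18 alternatives, and both stayed past 1.5-fold in each. With median-of-ratios scaling, which moved the median of all genes from -0.05 to 0.01, SFPQ went to 0.19, NONO reversed to 0.020, PSPC1 went to -0.10 and TARDBP to -0.051. Over the 18 alternatives between 4 and 6 of the 7 genes were called, fewer than 6 in most of them, where the main fit called 6. Of all genes tested, 2799 to 4191 were called over these alternatives, against 3788 in the main fit. The number of genes past 1.5-fold was 561, 351 with a pseudocount of 1 and 227 with a filter at 5 TPM, which leaves fewer genes. Of 45 named genes called outside the 7, 34 kept their call under every alternative in which they were tested, 11 lost it at least once and 0 reversed. LINC-PINT, SLC25A45, RELA-DT and RBM14-RBM4 were tested under 17 alternatives, since the filter at 5 TPM removed them. Among genes that were not called, median-of-ratios scaling turned TUG1 to 0.019 and CPSF7 to 0.039, and quantile normalization turned HNRNPK to -0.0072. With each library left out in turn, TUG1 lay between -0.083 and 0.065, CPSF7 between -0.044 and 0.023 and SMARCA4 between -0.013 and 0.038, with the change of sign in each when LLY-283 replicate 4 was left out. The cause was not tested. Same-numbered libraries did not deviate together (r of -0.041, 0.032, -0.0016 and -0.085), so the numbers give no pairing. With a replicate block 3296 genes were called instead of 3788, and 5 of the 7 instead of 6. Depth is unknown, which limits what can be said of genes of low expression.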
